A study of Mus musculus with 12 samples.

Results

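Maco1, Mib2, Sun2, Optn, Cnst and Pde9a are 6 mouse genes, of 20409 protein-coding genes in the deposited tables, at which insertions of a protein-tagging cassette were raised in cells sorted for post-transcriptional gene regulation (PTGR). They were picked by gene name, and they were picked because their insertions were raised in that screen, so the PTGR values below describe them and test nothing. None of the 6 encodes a member of the classical mRNA decay or translational repression machinery. They encode membrane, autophagy and signaling proteins.

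ORFtag uses a retrovirus to place a strong PGK promoter, a NeoR gene, an internal ribosome entry site, a tag and a splice donor at random genomic sites, so that the tag is spliced in front of the exons that follow. A mixture of 3 cassette versions covers the 3 reading frames. All cells were diploid mouse embryonic stem (mES) cells of the HMSc2 (AN3-12) line that carried a GFP reporter. The activator and PTGR reporter lines were clonal, and the methods do not state this for the repressor line. The PTGR cells carried a randomly integrated Puro-IRES-GFP reporter followed by boxB hairpins, which the λN tag binds, together with the tamoxifen-inducible recombinase CreERT2. These cells were selected with G418, sorted repeatedly for low GFP, treated with 4-hydroxytamoxifen to remove boxB, and sorted a last time for regained GFP. In the activator screen (GFP-positive sort) and the repressor screen (GFP-negative sort) the tag was TetR and the TetO sites lay upstream of the reporter's promoter. Each screen had 2 sorted and 2 unsorted G418-selected libraries, 12 in all.

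Insertion sites were read from genomic DNA by inverse PCR, so each library is a list of positions, without the number of cells or reads behind each, and the cell type could not be checked against expressed markers. An insertion was given to the nearest downstream exon, other than the first, of a protein-coding gene on its strand, at most 200 kb away. Counted as unique positions, the libraries held 58560 to 60980 assigned insertions in PTGR sorted, 14705 to 22266 in the other sorted samples, and 54088 to 233799 in the unsorted samples. Sorted and unsorted samples of a screen were not fully separate. Of the positions in PTGR sorted replicate 1, 19.5% were also listed in PTGR unsorted replicate 1, and 6.98% of those in sorted replicate 2 were also listed in unsorted replicate 2. In the activator screen these shares were 5.17% and 19.2%, and in the repressor screen 8.50% and 8.72%, with 10.0% of repressor sorted replicate 1 also in unsorted replicate 2. Values are therefore given with all 6 unsorted libraries as background, with the 2 of the PTGR screen, and with the 4 of the other screens.

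Tethering assays of this kind ask whether a protein, once brought to the 3′ end of a reporter mRNA, lowers its output. Many proteins that silence mRNA do so by recruiting the CCR4-NOT deadenylase, which shortens the poly(A) tail, or by blocking the cap-binding translation factor. Because ORFtag fuses the tag in front of an internal exon, the exon that is reached sets how much of the protein follows the tag. The splice acceptors that took the most PTGR sorted insertions at each gene are shown because they mark where each fusion is predicted to begin. Each line holds 20 intron bases in lower case and the first 10 exon bases in capitals, 5′ to 3′ on the gene's strand, in GRCm38.p6, whose coordinates are those of mm10.

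Maco1 exon 2 (chr4:134837981-134838010, minus strand): cttgtttttgtattttgcagTACATTTTTA
Maco1 exon 7 (chr4:134812689-134812718, minus strand): tgcctttctccctttcccagGCTGGAACAA
Mib2 exon 2 (chr4:155667160-155667189, minus strand): ctaaaatgatctttccccagCCTGGCTCCC
Sun2 exon 2 (chr15:79739872-79739901, minus strand): gttgccctgtctcccccaagTCTTTCTTTA
Optn exon 5 (chr2:5042511-5042540, minus strand): ttttatctctgcttttacagGAAGGAGAGA
Cnst exon 2 (chr1:179579318-179579347, plus strand): taagtcctttgtctttgcagGCATGGAAGG
Cnst exon 10 (chr1:179622747-179622776, plus strand): gttttcccactctctgacagGCCATTCCTG
Pde9a exon 5 (chr17:31443146-31443175, plus strand): ttctcttcttcggtttgtagAACGAGAAGA

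All 8 acceptors end in AG. In the reference transcripts the acceptors of Maco1 exons 2 and 7, Optn exon 5, Cnst exon 10 and Pde9a exon 5 lie inside the coding sequence. The acceptors of Mib2, Sun2 and Cnst exon 2 lie in front of the start codon, so a fusion there would read untranslated bases before the whole coding sequence.

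Maco1 (ENSMUSG00000028826, chr4:134802759-134853345, minus strand) encodes macoilin, a membrane protein of the rough endoplasmic reticulum with membrane-spanning segments in its N-terminal part and coiled coils in its C-terminal part. It had 86 and 59 insertions in PTGR sorted replicates 1 and 2. The PTGR unsorted libraries held 39 and 10, the activator unsorted libraries 6 and 6, and the repressor unsorted libraries 4 and 6. Both sorted replicates lay far above every other library, at 14.1 and 10.1 insertions per 10000, against 1.67 and 1.85 in PTGR unsorted and 0.23 to 0.342 in the 4 libraries of the other screens. The mean over the 6 unsorted libraries was 0.786 ± 0.756 (SD, n = 6), a spread that came from the step between the PTGR libraries and the rest.

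The log2 odds ratio of Maco1 was 4.13 ± 0.21 (SE) with both replicates summed against the 6 unsorted libraries, a 17.5-fold higher share. By odds ratio it held rank 3 among the 62 genes called in the PTGR screen, with Sun2 at 14, Mib2 at 26, Pde9a at 27, Optn at 28 and Cnst at 54. A gene is called there at an adjusted p below 0.001 in a one-sided Fisher's exact test with a log2 odds ratio of at least 1. Those 62 genes are 0.666% of the 9303 tested, and all 6 genes described here are among them by the way they were chosen. The size depended on the background, with 2.83 ± 0.24 against the PTGR unsorted libraries and 5.34 ± 0.32 against the other 4.

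**Figure D1:**
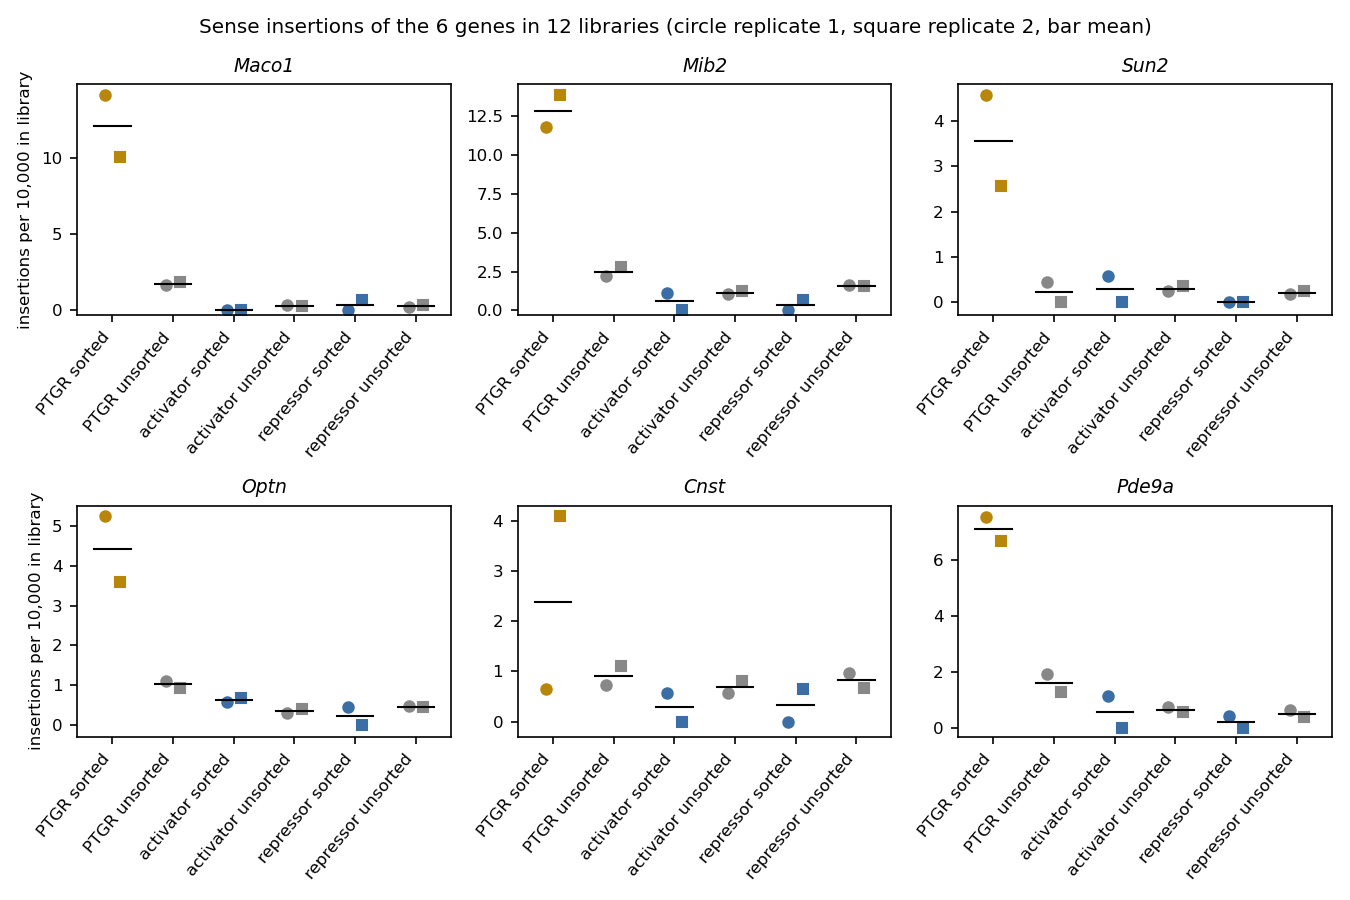
Sense insertions per 10000 assigned insertions (vertical axis) in the sorted and unsorted samples of each screen, with 1 panel per gene, circles for replicate 1, squares for replicate 2 and a bar at the mean. Both PTGR sorted replicates of 5 genes lie above all other libraries, while Cnst has 0.656 in replicate 1 and 4.10 in replicate 2.

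Most Maco1 insertions were given to exons 2 and 7, and of the 145 sorted ones 1 was given to exon 3 and 3 to exon 8. Exon 2 took 37 of 86 insertions in sorted replicate 1 and 25 of 59 in replicate 2, and exon 7 took 46 and 33. In the 6 unsorted libraries together exon 2 took 32 of 71 and exon 7 took 37. Exon 7 thus had 54.5% of sorted insertions (95% Wilson interval 46.4% to 62.4%) and 52.1% of background insertions (40.7% to 63.3%), but 49 of the 71 background insertions were from PTGR unsorted libraries, which shared most of their Maco1 positions with sorted ones. In the 4 unsorted libraries of the other screens exon 7 had 27.3% (13.2% to 48.2%) and exon 2 had 63.6% of 22 insertions. Taken by exon, the log2 odds ratio was 4.05 ± 0.31 for exon 2 and 4.19 ± 0.29 for exon 7. Against the 4 unsorted libraries of the other screens, where exon 2 had 14 and exon 7 had 6 insertions, these were 4.77 ± 0.43 and 6.34 ± 0.61.

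The proteins expected from exons 2 and 7 differ in length. In Maco1-201, a transcript of 11 exons that codes for 664 residues, a fusion at exon 2 starts its first whole codon at residue 28 and keeps 96.0% of the coding sequence. A fusion at exon 7 starts at residue 386 and keeps 42.1%, the C-terminal part. Both acceptors follow 2 bases of a split codon, so the same cassette frame reads into either. Of the 145 sorted insertions, 44 lay upstream of the gene, 99 in introns and 2 in exons. In the 4 unsorted libraries of the other screens 13 of 22 were upstream, spread out to 30873 bases before the gene start, whereas the most distant sorted insertion was 4006 bases before it.

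**Figure D2:**
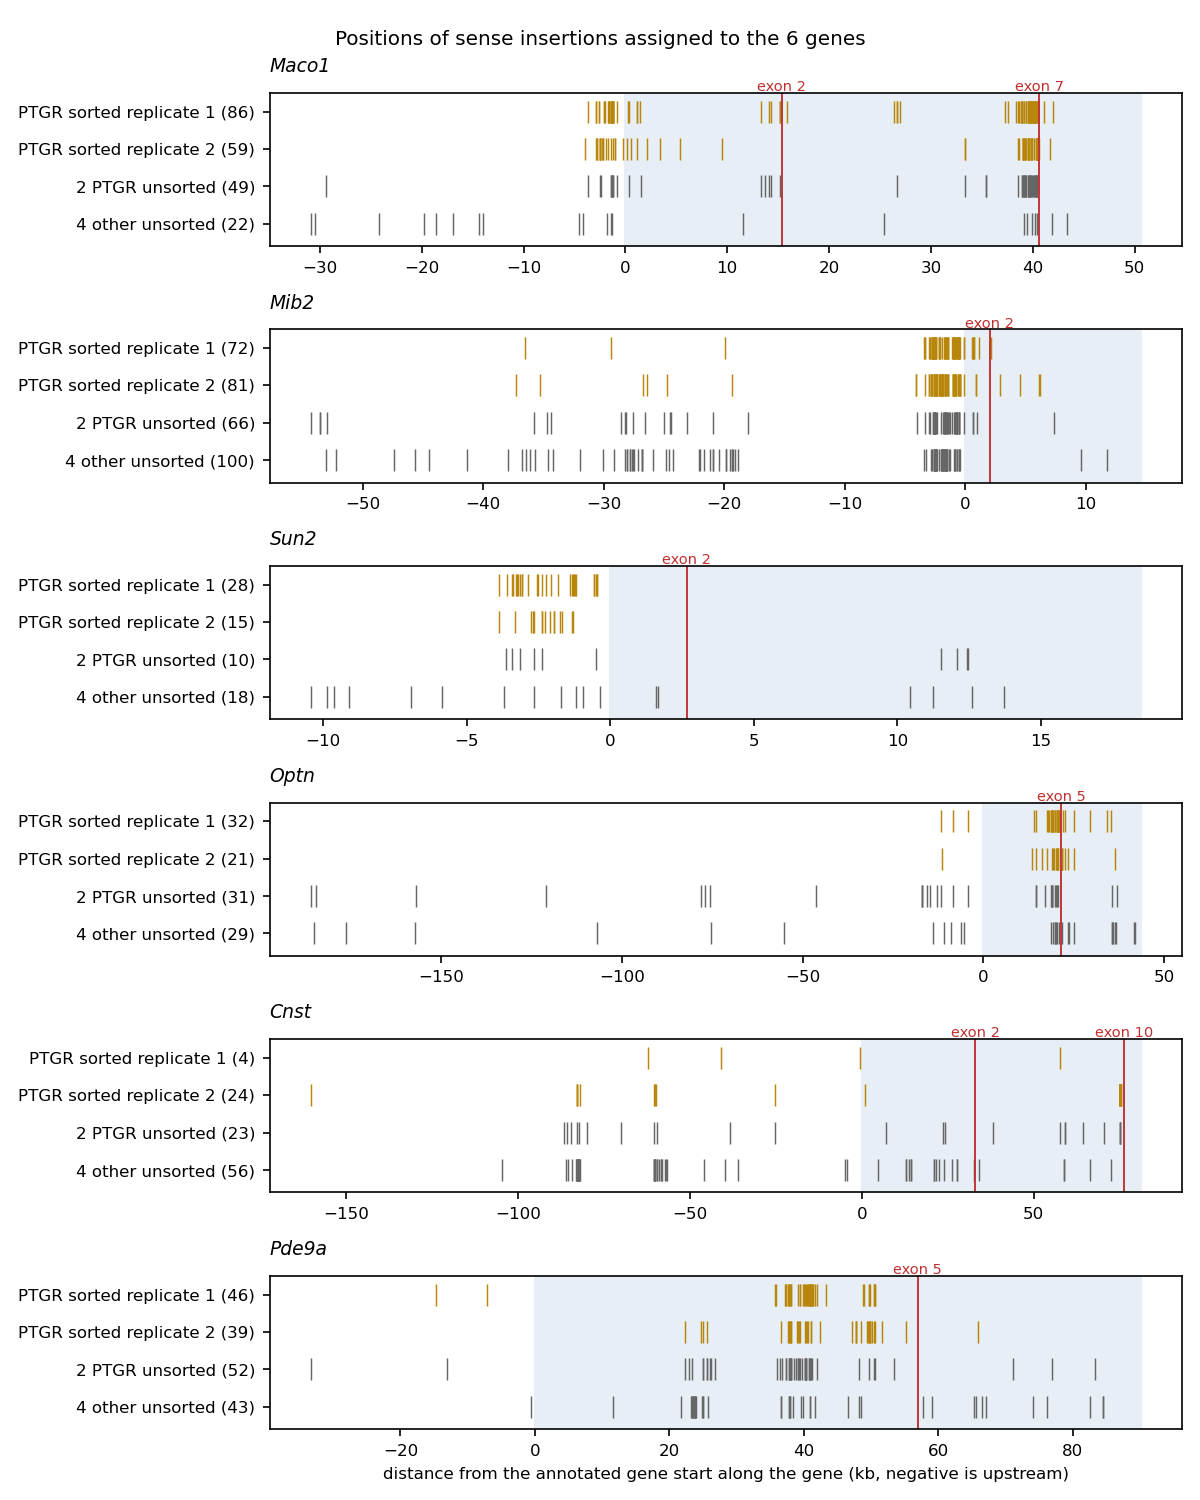
Distance of each sense insertion from the annotated gene start along the gene in kb (horizontal axis, negative upstream), with 1 panel per gene and a row for each PTGR sorted replicate, the 2 PTGR unsorted and the 4 other unsorted libraries, with the number of insertions in brackets. Shading marks the gene and red lines the exons with at least 10 sorted insertions. Sorted insertions of Sun2 lie within 3883 bases upstream of the gene, and those of Pde9a and Optn gather in front of exon 5.

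Maco1 was already frequent in the unsorted λN cells. In an edgeR quasi-likelihood test of the 2 PTGR unsorted against the other 4 unsorted libraries, Maco1 was higher by 2.42 on the log2 scale (adjusted p = 0.000234, range over 13 alternatives 0.000102 to 0.998). That test called 15 genes higher (0.125% of 12033) and 10 lower (0.0831%). The positions were largely those of the sorted cells. Of the 39 Maco1 positions in PTGR unsorted replicate 1, 30 were also in a PTGR sorted library, and of the 10 in unsorted replicate 2, 10 were. Over all genes, 5.08% of positions in unsorted replicate 1 were also in sorted replicate 1. For unsorted replicate 2 and sorted replicate 2 this share was 7.56%, and the crossed pairs shared 0.484% and 0.447%. Positions that were also in PTGR sorted libraries were then left out of the 2 PTGR unsorted libraries, but not of the other 4. This kept 9 and 0 Maco1 insertions, and the difference was 0.02 (edgeR adjusted p = 0.998). Maco1 was chosen for its many sorted positions, so a drop under this filter is in part built in and the value is a description. Without PTGR unsorted replicate 1 the value was 2.45 and the call was lost (edgeR adjusted p = 0.251). Whether unsorted cells held sorted ones was not tested.

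For the other 5 genes the unsorted comparison made no call, although all 5 lay in the same direction as Maco1, each by less. Pde9a differed by 1.49 (edgeR adjusted p = 0.0633), Optn by 1.34 (0.276), Mib2 by 0.71 (0.457), Sun2 by 0.37 (0.93) and Cnst by 0.04 (0.993). Leaving out shared positions gave 1.09 for Pde9a (edgeR adjusted p = 0.367), 1.00 for Optn (0.529) and 0.18 for Mib2 (0.941). Sun2 and Cnst then turned to -0.25 (0.97) and -0.28 (0.932). The limit given for Maco1 under this filter holds for these genes too. On the strand-reversed assignment, where the strand of each insertion is flipped before it is given to an exon, the Maco1 difference was 0.32 (edgeR adjusted p = 0.942).

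Mib2 (ENSMUSG00000029060, chr4:155654677-155669198, minus strand) encodes an E3 ubiquitin ligase that acts on Notch ligands. It had 72 and 81 insertions in PTGR sorted replicates 1 and 2. The unsorted libraries held 51 and 15 (PTGR), 18 and 26 (activator) and 28 and 28 (repressor). The sorted rates of 11.8 and 13.8 per 10000 lay above the highest unsorted rate of 2.77, and the background mean was 1.74 ± 0.641 (SD, n = 6). Summed, the log2 odds ratio was 2.98 ± 0.16, with 2.86 ± 0.20 and 3.09 ± 0.20 for the 2 replicates.

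Nearly all Mib2 insertions were given to exon 2, with 148 of 153 in PTGR sorted and 163 of 166 in the background. What differed was their distance. In the sorted cells 142 of 153 lay within 5000 bases of the gene start, against 98 of 166 in the background, and the median distance to the exon was 3791 bases against 4564. The upper quartile was 4612 bases against 26971.5. In Mib2-201 the coding sequence opens in exon 3, and 153 of the 153 sorted insertions keep it whole.

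Sun2 (ENSMUSG00000042524, chr15:79724070-79742536, minus strand) encodes an inner nuclear membrane protein of the LINC complex, which joins the nuclear lamina to the cytoskeleton. It had 28 and 15 insertions in PTGR sorted replicates 1 and 2. The PTGR unsorted libraries held 10 and 0, the activator unsorted libraries 4 and 7, and the repressor unsorted libraries 3 and 4. The rates of 4.59 and 2.56 per 10000 were above the 0 to 0.428 of the unsorted libraries, where the 0 of PTGR unsorted replicate 2 allows up to 0.555. The log2 odds ratio was 3.72 ± 0.35, with 4.07 ± 0.39 and 3.23 ± 0.46 by replicate.

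Sun2 had the narrowest placement. Each of the 43 sorted positions was upstream of the gene's annotated start, from 453 to 3883 bases before it, and was given to exon 2, the first coding exon of the reference transcript. In the background 20 of 28 were given to exon 2 and the other 8 to exons 8, 9 and 11. The 43 of 43 gives a share of 100% (Wilson interval 91.8% to 100%) against 71.4% (52.9% to 84.7%). None of the 43 positions was shared between the sorted replicates, and 4 of them were also in PTGR unsorted replicate 1. Few were shared at the other genes too, with 0 for Optn and Cnst. Maco1 had 6 of 139 distinct positions in both sorted replicates, Mib2 10 of 143 and Pde9a 2 of 83. The share over all positions was not counted.

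Optn (ENSMUSG00000026672, chr2:5020642-5064051, minus strand) encodes optineurin, a ubiquitin-binding receptor of selective autophagy. It had 32 and 21 insertions in the PTGR sorted replicates, against 26 and 5, 5 and 8, and 8 and 8 in the unsorted replicates of the PTGR, activator and repressor screens. The sorted rates of 5.25 and 3.59 per 10000 exceeded the highest unsorted rate of 1.11. This gave a log2 odds ratio of 2.92 ± 0.27 against the 6 unsorted libraries, 2.04 ± 0.33 against the PTGR unsorted libraries and 3.49 ± 0.33 against the other 4.

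Optn differed in exon between sorted and unsorted samples. Exon 5 took 20 of 32 and 9 of 21 insertions in the sorted replicates and 16 of 60 in the background, which is 54.7% (Wilson interval 41.5% to 67.3%) against 26.7% (17.1% to 39.0%). Exon 2, which keeps the whole protein, took 4 of 53 and 28 of 60. By exon, the log2 odds ratio was 0.29 ± 0.77 for exon 2, 4.32 ± 1.00 for exons 4 and 6 each and 3.95 ± 0.45 for exon 5. In Optn-201, which codes for 584 residues, a fusion at exon 5 starts at residue 195 and keeps 66.8% of the coding sequence. Background insertions given to exon 2 came from as far as 185863 bases upstream of the gene, and the farthest sorted one was 11780 bases upstream.

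**Figure D3:**
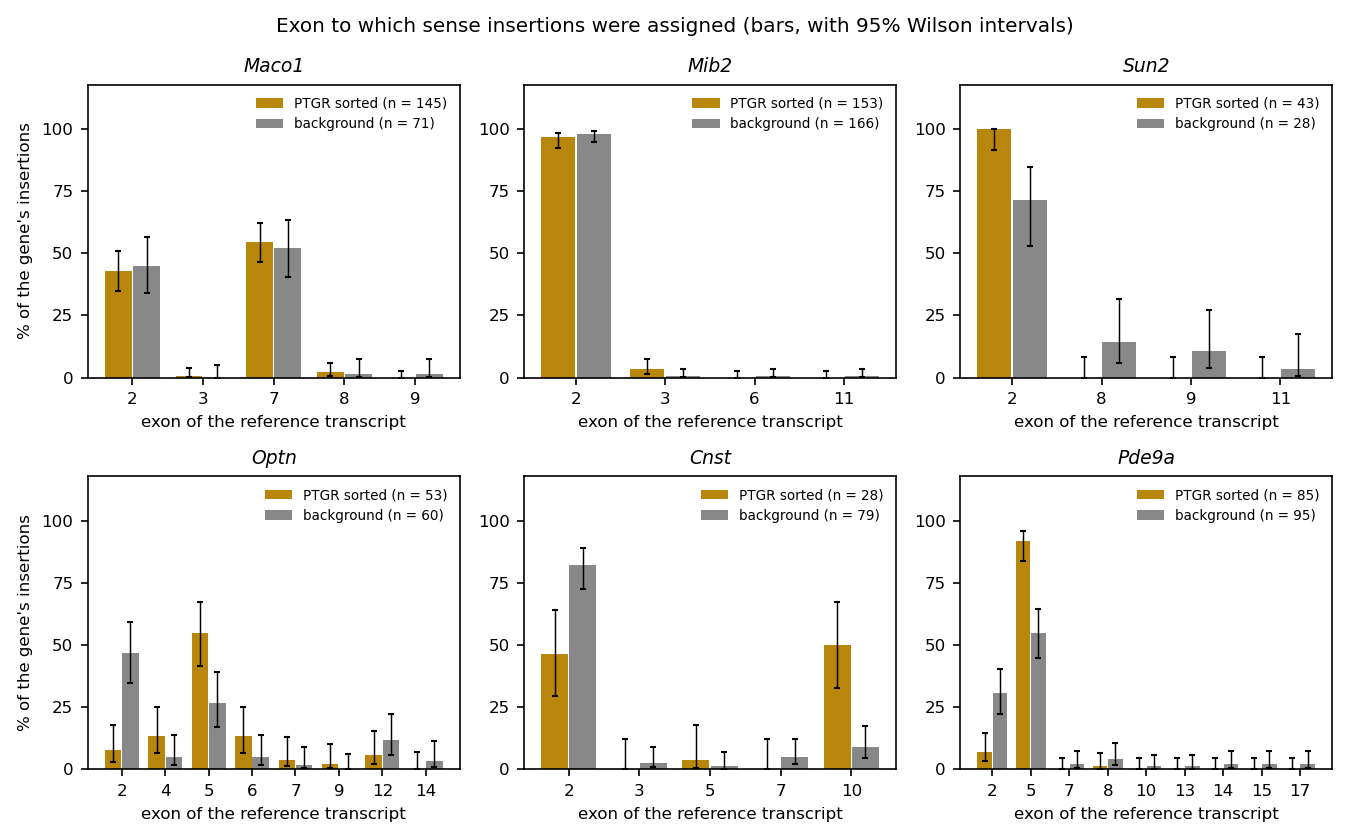
Share of each gene's sense insertions given to each exon of the reference transcript (percent, bars with 95% Wilson intervals) in PTGR sorted and background libraries. Exon 2 of Mib2 holds nearly all insertions in both, the background shares of Maco1 include positions shared with sorted libraries, Optn and Pde9a have larger exon 5 and smaller exon 2 shares in sorted libraries, and the exon 10 bar of Cnst comes from sorted replicate 2.

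Pde9a (ENSMUSG00000041119, chr17:31386210-31476310, plus strand) encodes a phosphodiesterase that hydrolyses cyclic GMP. It had 46 and 39 insertions in PTGR sorted replicates 1 and 2, with 45 and 7 in PTGR unsorted, 13 and 12 in activator unsorted and 11 and 7 in repressor unsorted. At 7.54 and 6.66 per 10000 both sorted rates were above the highest unsorted rate of 1.92, and they were closer to each other than those of Maco1 or Sun2. Its log2 odds ratio was 2.94 ± 0.22, with 3.02 ± 0.26 and 2.84 ± 0.27 by replicate, and it was 1.98 ± 0.25 against the PTGR unsorted libraries.

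Exon 5 of Pde9a took 44 of 46 and 34 of 39 sorted insertions, and 52 of 95 in the background. The shares were 91.8% (Wilson interval 84.0% to 96.0%) and 54.7% (44.7% to 64.4%). The background share joined unlike parts, with 71.2% of 52 insertions (57.7% to 81.7%) in the PTGR unsorted libraries. In the 4 unsorted libraries of the other screens it was 34.9% of 43 (22.4% to 49.8%). Exon 2 took 6 of 85 against 29 of 95. By exon, the log2 odds ratio was 0.82 ± 0.65 for exon 2 and 3.68 ± 0.26 for exon 5. Both exons lie inside the coding sequence of Pde9a-201 (534 residues). Exon 2 keeps 95.7% of it, and exon 5 keeps 83.6% and starts at residue 89. Of the 85 sorted insertions 83 were in introns, at a median of 16058 bases from the exon.

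Cnst (ENSMUSG00000038949, chr1:179546370-179627478, plus strand) encodes consortin, which helps carry connexins from the trans-Golgi network to the cell surface. It was the least certain of the 6. The sorted replicates held 4 and 24 insertions. The unsorted libraries held 17 and 6 (PTGR), 10 and 17 (activator) and 17 and 12 (repressor). Replicate 1, at 0.656 per 10000, lay within the unsorted range of 0.57 to 1.11, and replicate 2, at 4.10, lay above it. The log2 odds ratio was -0.24 ± 0.74 in replicate 1, 2.41 ± 0.34 in replicate 2 and 1.60 ± 0.32 summed. The summed call was lost without sorted replicate 2, and also without PTGR unsorted replicate 1 (1.57), activator unsorted replicate 1 (1.52) or repressor unsorted replicate 2 (1.56). It was lost too with the PTGR unsorted libraries alone as background (1.55) and at a maximum distance of 50 kb (2.08).

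Of the 24 Cnst positions of replicate 2, 14 formed 1 run at steps of exactly 2 bases, spanning 27 bases in intron 9, 1110 to 1136 bases before exon 10. The bases of that run on the plus strand, with the listed positions in capitals, are shown because they carry most of the raise.

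Cnst run (chr1:179621630-179621656): CtCtCtCtCtCtCtCtCtCcCtCtCtC

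The run overlaps a repeat of the pair CT, unbroken over 34 bases (chr1:179621614-179621647). At this repeat and 5 bases to either side, PTGR unsorted replicate 2 listed 3 positions and no other library listed any. With positions within 10 bases counted as 1, replicate 2 had 11 and replicate 1 had 4 insertions, the log2 odds ratio was 0.76 ± 0.41 and Cnst was not called. Exon 2, which keeps the whole protein, took 13 sorted and 65 background insertions, with a log2 odds ratio of 0.77 ± 0.44. Whether the run stems from 1 insertion was not tested.

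The merging of near positions left the other genes raised. Maco1 went from 86 and 59 to 64 and 44 insertions, Mib2 from 72 and 81 to 54 and 57, and Sun2 from 28 and 15 to 25 and 12. Their longest runs in a sorted library held 4, 4 and 2 positions. The pooled counts deposited by the authors for PTGR sorted were higher than the unique counts, with 184 against 145 for Maco1 and 43 against 28 for Cnst, and equal the number of listed rows with repeated positions included. Such repeats made up 12.8% of the rows of PTGR sorted replicate 2 and 0.0104% of those of replicate 1.

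**Figure D4:**
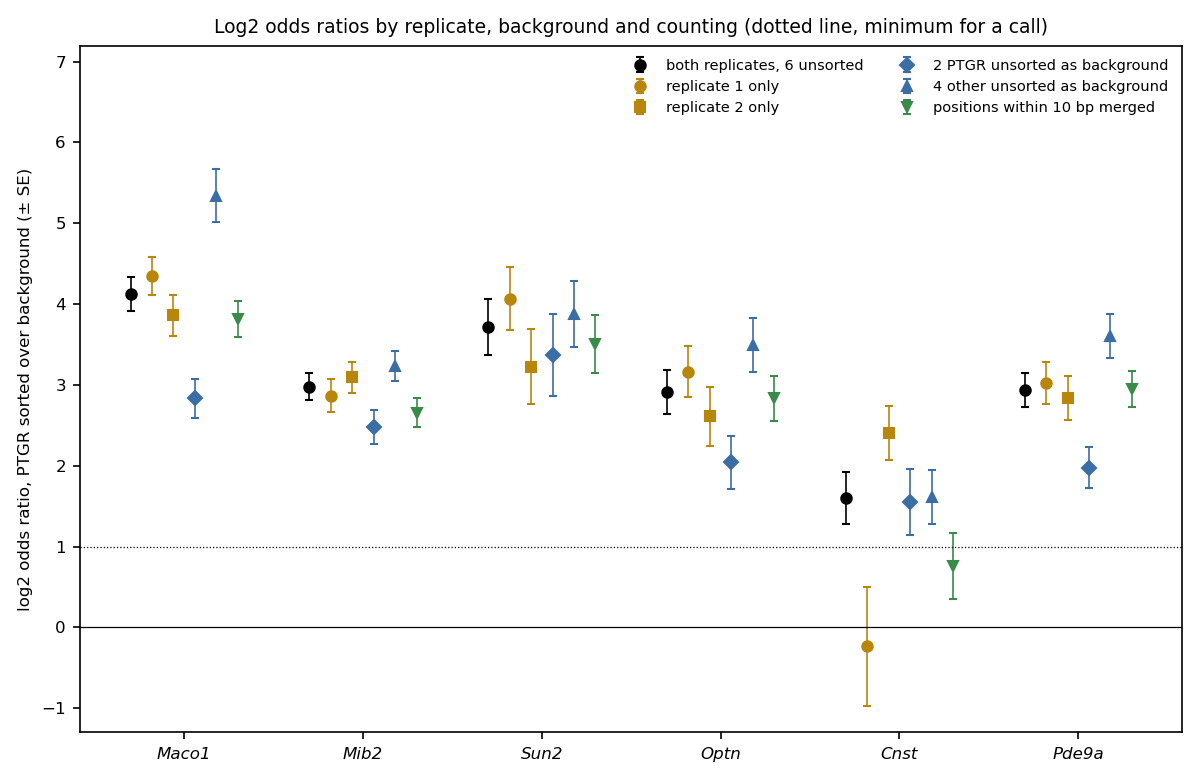
Log2 odds ratio of PTGR sorted over background (± SE) for each gene with both replicates, each replicate alone, either part of the unsorted libraries as background, and near positions merged. The dotted line marks the minimum of 1 for a call. Cnst alone falls below it, in replicate 1 and with near positions merged.

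With the spread between replicates in the model, 5 of the 6 genes were still called. An edgeR fit of the 2 sorted against the 2 unsorted PTGR libraries called 29 of 8491 genes (0.342%), among them Maco1, Mib2, Sun2, Optn and Pde9a. Blocking on the replicate number raised this to 42 (0.495%), and DESeq2 called 29 of 2729 (1.06%), and in both fits the same 5 were among them. The fold changes without the block ran from 2.08 (Pde9a) to 3.44 (Sun2) on the log2 scale, and Cnst was at 1.54 without a call. This contrast also chose the genes, so the counts are a description.

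The choice rested on the PTGR sorted cells and not on the sorted cells of the TetR screens. The 6 unsorted libraries were the background in both, so the comparisons below are not fully independent of the choice. None of the 6 genes was called in the activator screen, where 132 genes were (4.64% of 2842), or in the repressor screen, where 192 were (8.18% of 2346). Activator sorted libraries held 0 insertions in Maco1, 2 each in Mib2, Optn and Pde9a, and 1 each in Sun2 and Cnst. Repressor sorted libraries held 0 in Sun2 and 1 in each of the others. No gene reached the minimum of 3 that the test asks for. With no minimum, one-sided Fisher's exact p ran from 0.567 for Optn to 0.965 for Mib2 in the activator screen and from 0.889 for Optn to 0.998 for Mib2 in the repressor screen. After Benjamini-Hochberg adjustment none was below 0.999. These libraries were small. The 0 of Maco1 in the activator sorted libraries allows up to 0.935 per 10000, above the 0.316 ± 0.0375 (SD, n = 2) of the activator unsorted libraries, so a lower rate was not detectable at this depth. The difference between screens was not itself tested.

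With the strand reversed the tag could not be spliced into the gene. Read this way, all 6 genes had fewer PTGR sorted insertions in sum than on their own strand. By replicate Cnst was the exception, with 13 reversed against 4 on its own strand in replicate 1. Replicates 1 and 2 held 1 and 2 for Maco1, 6 and 7 for Mib2, 1 and 3 for Sun2, 3 and 0 for Optn, 13 and 6 for Cnst and 11 and 5 for Pde9a. Their log2 odds ratios ran from -1.24 ± 0.85 (Optn) to 1.40 ± 0.82 (Sun2), with Maco1 at -0.31 ± 0.87 and Cnst at 0.74 ± 0.36. The 46 genes called on the reversed strand (0.5% of 9204) held none of the 6. In the activator and repressor screens the reversed calls were 85 (3.14% of 2706) and 125 (5.61% of 2229), again with none of them.

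The reversed calls did hold nearby genes. Flipped to the other strand, 145 of the 145 sorted insertions of Maco1 were given to Rhd, a blood group antigen gene 11191 bases away, and made up most of its 149. All 153 of Mib2 went to Ssu72, a phosphatase gene of RNA polymerase II, all 53 of Optn to Ccdc3, which had 61 in all, and all 85 of Pde9a to Rsph1, which had 121. Each of these was called on the reversed strand, with log2 odds ratios of 3.67 ± 0.19 (Rhd), 2.92 ± 0.16 (Ssu72), 2.17 ± 0.23 (Ccdc3) and 1.45 ± 0.15 (Rsph1). Rhd had 12 and Ssu72 had 14 sorted insertions on their own strand, with log2 odds ratios of 0.53 ± 0.45 and -0.49 ± 0.40. The reversed count of Ssu72 is thus made of insertions already counted for Mib2, and those of Rhd, Ccdc3 and Rsph1 are so in part. The 43 of Sun2 went to Apobec3, which was not called.

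On their own strand none of the 12 nearest genes on either side was called. Over all genes tested 0.666% were, so the lack of calls among so few genes says little. Slc37a1, a sugar-phosphate exchanger gene 35471 bases upstream of Pde9a on the same strand, had 37 such insertions, with 0.11 ± 0.25 on the log2 odds ratio scale. Mcm10, downstream of Optn, had 6 and 0.04 ± 0.62, and Tfb2m, which starts 103 bases from Cnst, had 6 and -0.73 ± 0.61. Wdr4 and Ccdc3 had 12 and 8. Gtpbp1, Dnal4 and Sccpdh had 2 each and Mmp23 had 0, too few to be tested.

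Lists of genes related to the 6 by function were short beside a share of 0.666% called over all genes tested, so their few calls say little about them. Of 25 other autophagy receptors and TBK1 partners 17 were tested and 1 was called. This was Ikbkg, the regulatory subunit of the NF-κB kinase and a relative of optineurin, with 30 and 21 insertions in the sorted replicates. Its log2 odds ratio was 2.48 ± 0.26, while Gabarapl2 had 62 sorted insertions at -0.20 ± 0.19. The lists were chosen with earlier results of these data known, so the call of Ikbkg is a description. Of 16 Notch pathway genes that act with Mib2 8 were tested and 0 called, with Neurl1a at 0.01 ± 0.37 and Notch1 at 0.58 ± 0.42. Of 20 nuclear envelope genes 16 were tested and 0 called, with Lmnb1 at 0.12 ± 0.24 and Syne3 at -0.70 ± 0.27.

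Of 23 other cyclic nucleotide phosphodiesterases 17 were tested and 0 called, among them Pde4d at -0.10 ± 0.27 and Pde8a at 0.21 ± 0.35. Of 22 connexins and sorting factors 8 were tested and 0 called, with Gjb5 at -0.53 ± 0.34. Of 16 rough endoplasmic reticulum membrane genes 8 were tested and 0 called, with Rrbp1 at -0.25 ± 0.23 and Ssr3 at 0.00 ± 0.27. The median log2 odds ratio of these lists ran from -0.19 to 0.60, beside 0.14 over all genes tested. In the activator screen 1 to 7 genes of each list were tested, and in the repressor screen 0 to 5. None of them was called, where 4.64% and 8.18% of all genes tested were. With so few tested, the lack of calls says little.

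Genes of mRNA silencing give the scale of the values. Of 42 listed 36 were tested and 15 called in the PTGR screen, where 0.666% of all genes tested were, with a median log2 odds ratio of 1.16. Of the same list 11 were tested in the activator and 6 in the repressor screen, and 0 were called, where 4.64% and 8.18% of all genes tested were. Tnrc6b, which links Argonaute to deadenylation, had 201 sorted insertions and 4.34 ± 0.19, and Cnot9, a CCR4-NOT subunit, had 106 and 4.27 ± 0.25. Cnot2, another subunit, had 154 and 3.65 ± 0.18, and Eif4enif1, a translational repressor that binds eIF4E, had 108 and 2.31 ± 0.17. Maco1 at 4.13 thus lay beside Cnot9, and Mib2, Optn and Pde9a lay near Smg5, a nonsense-mediated decay factor with 45 insertions and 2.92 ± 0.30. Cnst at 1.60 was near Upf2, of the same pathway as Smg5, at 1.74 ± 0.25. The replicates of Cnst differed, however, with -0.24 ± 0.74 in replicate 1 and 2.41 ± 0.34 in replicate 2, whereas Upf2 had 25 and 21 insertions.

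The gene whose rate over the 12 libraries was most like that of Maco1 was Trim25, a ubiquitin ligase, with a Pearson correlation of 0.962 of log2 rates, followed by Ncoa5 at 0.937. For Pde9a these were Trim13 (0.964) and Cnot2 (0.932), for Optn Virma (0.952) and Tnrc6b (0.943), and for Mib2 Trp53i11 (0.933) and Cnot2 (0.932). For Sun2 they were Pou5f1 (0.926) and 4930452B06Rik (0.923), and for Cnst Arhgap42 (0.972) and Polg (0.945). They were the highest among 7998 genes with at least 30 insertions, over 12 libraries that share cassettes, reporters and depth, so the correlations are a description. Neither gene most like Cnst was called in the PTGR screen, at 0.58 ± 0.25 and 1.54 ± 0.39, nor was Trp53i11 at 0.86 ± 0.39.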

How the data were processed

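The authors trimmed iPCR reads (Trim Galore 0.6.0), aligned them to mm10 with Bowtie2, removed low-quality and duplicate alignments (SAMtools 1.9) and gave every insertion the first exon downstream of it, first exons of transcripts excepted, in GENCODE vM25. The deposited lists give positions, distance and exon number. The deposited screen tables hold counts per gene pooled over replicates, with odds ratios, FDR and hit columns, none of which were used. Here unique positions within 200 kb were counted per gene and library. Sorted counts (both replicates) were compared with the 6 unsorted libraries by one-sided Fisher's exact test, adjusted (Benjamini-Hochberg) over genes with at least 3 sorted insertions and called at adjusted p below 0.001 and log2 odds ratio of at least 1. SE of log2 odds ratios and Wilson intervals (95%) cover counting error only. A count of 0 allows 3 insertions. Unsorted libraries were compared with edgeR 4.0.16 (TMM, at least 10 insertions, adjusted p below 0.05), with DESeq2 1.42.0 as an alternative. R 4.3.3, Python 3.11.15 and scipy 1.17.1 were used. The tests were checked on simulated data.

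Reference transcripts and gene bounds came from GENCODE vM21, whose exon starts matched each listed acceptor of the 6 genes. Acceptor and repeat bases came from RefSeq's GRCm38.p6. The members and lists were chosen with earlier results of these data known. The named genes were the 6 members, the nearest gene of the tables on either side, the 2 genes with the most similar profile (log2 of insertions per 10000 plus 0.1), and of each list the called genes and the 2 with the most sorted insertions. Of these, 2 genes are not reported here. The genes that take the members' reversed insertions were named after their values were seen. Depth was 14705 to 233799 assigned insertions per library. Per the methods the 2 replicates of a screen were biological, and unsorted cells were taken from the same selected population before sorting. Same-numbered PTGR libraries shared 19.5% and 6.98% of sorted positions, crossed ones 0.397% and 1.93%, and same numbers deviated together (r = 0.258 over 5411 genes), so the numbers were taken to pair the PTGR libraries. In the repressor screen shared positions did not follow the numbers.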

Additional observations from a re-analysis of the deposited data

Results flagged for a closer look

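For 4 genes both PTGR sorted rates lay above, and both listed sorted rates of a TetR screen below, the unsorted rates of the same screen, and none of these differences was tested. For Maco1 the mean in activator sorted was 0 per 10000 against 0.316 in activator unsorted, beside 12.1 in PTGR sorted and 1.76 in PTGR unsorted. In the repressor screen the sorted means were 0.329 for Mib2, 0 for Sun2 and 0.225 for Optn, against unsorted means of 1.59, 0.199 and 0.456. In the activator screen Optn lay the other way, with a sorted mean of 0.627 (0.575 and 0.680 by replicate) against 0.335 (0.285 and 0.385), which was not tested either. These TetR values rest on 0 or 1 insertion per gene and library. The 0 of Maco1 allows up to 1.72 and 2.04 in the activator sorted replicates. That of Sun2 allows up to 1.35 and 1.97 in the repressor sorted replicates, and that of Optn up to 1.97 in repressor sorted replicate 2. These limits all lay above the unsorted rates. The 0.449 of Optn in repressor sorted replicate 1 lay close to its unsorted 0.459 and 0.452. For Maco1, Sun2 and Optn a lower rate was thus not detectable at this depth.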

How the results depend on the processing

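Maco1, Mib2, Sun2, Optn and Pde9a were called in the PTGR screen under each of 19 alternatives, with log2 odds ratios of 2.83 to 5.34, 2.46 to 3.23, 3.23 to 4.07, 2.04 to 3.49 and 1.98 to 3.60. Cnst was called under 9 of 19, and without sorted replicates in turn its value was -0.24 to 2.41. Calls in the PTGR screen numbered 62, or 40 with the PTGR unsorted libraries alone as background, 29 in edgeR without a replicate block, 42 with it and 29 in DESeq2. Reversed PTGR calls went from 46 to 29, 20 and 22 under the first, second and last of these (33 with the replicate block), and reversed repressor calls from 125 to 72 at a maximum of 50 kb. The unsorted comparison, with 25 calls, gave 5 in DESeq2, 11 with every listed row, 16 at 50 kb, 6 without positions shared with sorted libraries, and 0 to 23 without 1 library (0 without PTGR unsorted replicate 1, 8 without PTGR unsorted replicate 2 or activator unsorted replicate 2, 12 without repressor unsorted replicate 1). That comparison reversed for Sun2 (-0.25) and Cnst (-0.28) without shared positions and for Cnst (-0.064) with near positions merged. Leaving out 1 library gave -5.00 to 0.76 for Sun2, where the lowest rests on a library with 0 insertions and depends on the prior count, and -0.096 to 0.39 for Cnst. The replicate block gave 25 calls there and, beside edgeR without it, changed no call on the 6 genes. Same-numbered libraries of the activator and repressor screens hardly deviated together (r = 0.0496 and 0.00596), and there the block gave 100 and 178 calls against 123 and 198 without it. Alternatives with the other 4 unsorted libraries as background, or without shared positions, were added after the data had been seen. The causes of these changes were not tested. Depth limits the TetR screens, where 3 insertions are 0.801 to 0.935 per 10000.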
